A study of Rattus norvegicus with 24 samples.

Results

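The subject here is the change that AH236 made to the glutamate response of cultured rat cortical cells, that is, the difference between 2 differences. For every gene, glutamate minus medium in cultures given AH236 was set against glutamate minus medium in cultures given DMSO, the solvent control. The rule took the 4 groups of this contrast, which hold 12 of the 24 libraries of the series, with 3 in each of DMSO in medium, DMSO in glutamate, AH236 in medium and AH236 in glutamate. Cells from rat cortex were kept on coated plates for 8 days, after which the medium was replaced, either by new medium alone or by medium holding glutamate at 250 μM, and the plates were imaged live for 4 h. AH236 is known here only by its code name, and neither its dose nor the time of its addition is given. The same holds for IS141 and AH609, the agents given to the other 12 libraries. All wells came from the same kind of culture, and the labels name no strain, animal or donor and do not say that libraries of a group came from separate cultures. The p-values therefore measure the spread among these libraries, part of which may be technical.

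Glutamate is the main fast excitatory transmitter of the cortex. It opens ionotropic receptors, among them the calcium-permeable NMDA receptors, and the calcium that enters switches on genes of neuronal activity within minutes. Prolonged exposure overloads neurons with calcium and injures them, which is called excitotoxicity. A compound can act on this response, or it can change the level of a gene in the same way in both media. An interaction contrast measures only the first of these, since a shift that is equal in both media cancels. A positive value means that glutamate minus medium was more positive with AH236 than with DMSO, and such genes are called higher below. Genes with a negative value are called lower. A higher gene may be one that glutamate raised further, one that it lowered less, or one whose direction turned.

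The 12 libraries held between 23906256 and 34997849 counts. The library titled DMSO without a number, called DMSO replicate 1 here, stood apart. Its correlation with the other DMSO libraries in medium was 0.982 to 0.983 on log2 CPM (counts scaled to a common library total) across genes, while the lowest correlation of any other replicate pair in the series was 0.993. The counts, sizes and classes of the interaction are therefore given with and without it. The table gives Ensembl gene IDs, and 0 of its 32754 IDs could be paired with a name in the reference used here. Marker genes, pathways and promoters could therefore not be looked up, and whether the cultures held neurons, glia or both was not checked. In bulk libraries fewer cells of a type and less RNA per cell cannot be told apart.

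A change of the glutamate effect with AH236 was called for a small share of the genes. Of 15908 genes tested, 246 were called at an adjusted p under 0.05 in edgeR's quasi-likelihood test, which was 1.55% of the genes. Of these, 140 were higher (0.880%) and 106 lower (0.666%). An unadjusted p under 0.05 in the same test was found for 2287 genes, and for 2523 without DMSO replicate 1. A gene with no call is therefore not shown to be unchanged. When DMSO replicate 1 was left out, the call took in 496 of 16119 genes (3.08%), of which 234 were higher (1.45%) and 262 lower (1.63%). With that library the higher genes were the more numerous, except with no filter on low counts (99 higher and 106 lower) and with library totals alone as the scaling (105 each). Without it the lower ones were, and scaling by library totals alone moved that split to 170 higher and 298 lower. The exceptions there were DESeq2 (315 higher and 298 lower) and the fit that also left out AH236 replicate 3 (199 and 198). Both calls shared 210 genes, of which 114 were higher and 96 lower. These 114 were 81.4% of the genes called higher with all libraries and 48.7% of those called higher without DMSO replicate 1, and the 96 were 90.6% and 36.6% of the genes called lower. All 246 genes called with all libraries kept their sign without DMSO replicate 1. Of the genes called lower without it, 14 had a positive value with it.

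**Figure D1:**
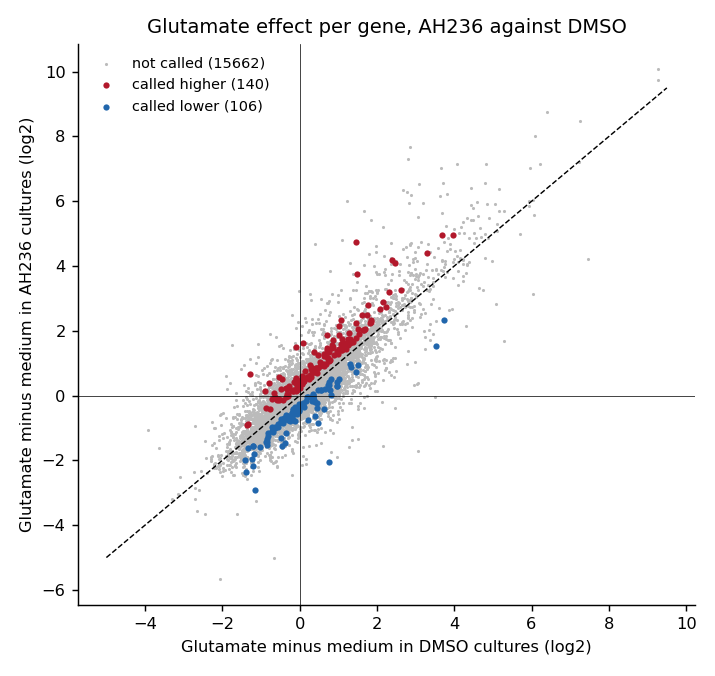
Glutamate minus medium per gene in DMSO cultures (horizontal, log2) against the same in AH236 cultures (vertical, log2), each point 1 of 15908 genes and the dashed line equality. The 140 genes called higher lie above the line and the 106 called lower below it, most of them close to it, while many genes far from the line were not called.

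Most of these changes were small. The median log2 difference was 0.47 among the 140 higher genes, or 1.39-fold, and -0.40 among the 106 lower genes. The difference was under 2-fold for 124 of the higher and 97 of the lower genes, which left 16 genes higher and 9 lower by at least 2-fold. In the fit without DMSO replicate 1 the median was 0.39 among the 234 higher and -0.46 among the 262 lower genes, and the difference was under 2-fold for 221 and 233 of them. Over all genes tested the median absolute log2 difference was 0.14. Called genes were the more abundant ones, with a median average log2 CPM of 5.60 for higher and 5.27 for lower genes against 3.83 for all genes tested. These levels were 5.85 and 5.12 against 3.77 without DMSO replicate 1. When the genes were split by average level into 4 equal parts, 0.251% of the lowest part were called, then 1.08%, 2.19% and 2.67% of the highest. The same 4 parts had 0.377%, 2.34%, 4.32% and 5.43% called without DMSO replicate 1.

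The libraries of both treatments seldom overlapped for the called genes. With 3 libraries in each medium, 9 glutamate-minus-medium differences can be formed for each treatment. For 136 of the 140 higher genes all 9 AH236 differences lay above all 9 DMSO differences, and for 104 of the 106 lower genes all lay below. Among all genes tested such separation was found for 3.39% upward and 3.06% downward. The called genes were chosen on the same libraries, so these counts describe the calls and do not add support to them. Leaving out DMSO replicate 1, the separation held for 230 of 234 higher and 261 of 262 lower genes, against 5.71% and 5.91% of all genes.

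The number of called genes changed with the library left out. With DMSO replicate 1, 2 or 3 left out of the medium group, 496, 487 and 385 genes were called, and without DMSO glutamate replicate 1, 2 or 3 the number was 77, 163 and 194. It was 93, 141 and 118 without AH236 replicate 1, 2 or 3, and 112, 140 and 82 without AH236 glutamate replicate 1, 2 or 3. Leaving out any 1 of the DMSO libraries in medium thus raised the count, and leaving out any 1 of the other 9 lowered it. Each of these fits also has 2 libraries in place of 3 in a group, which can lower a count. How much of each fall came from that was not tested. The balance moved as well, to 323 higher and 164 lower genes without DMSO replicate 2 and to 263 and 122 without DMSO replicate 3, against 234 and 262 without DMSO replicate 1. Rises of at least 2-fold numbered 88 without DMSO replicate 2 and 72 without DMSO replicate 3, but 13 without DMSO replicate 1, and between 4 and 9 without any AH236 library in either medium or DMSO glutamate replicate 1 or 2. Falls of at least 2-fold numbered 29 without DMSO replicate 1 and 14 without DMSO replicate 2. When the 12 libraries were fitted alone, 18 genes were called, and 396 were called in the same fit without DMSO replicate 1. From the set without DMSO replicate 1, leaving out DMSO replicate 2 or 3 as well leaves 1 DMSO library in medium. Its spread must then be assumed to be that of the other groups. The count depended strongly on which library remained, so it is not given. Leaving out AH236 glutamate replicate 3 from the set without DMSO replicate 1 gave 336 genes (150 higher and 186 lower).

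**Figure D2:**
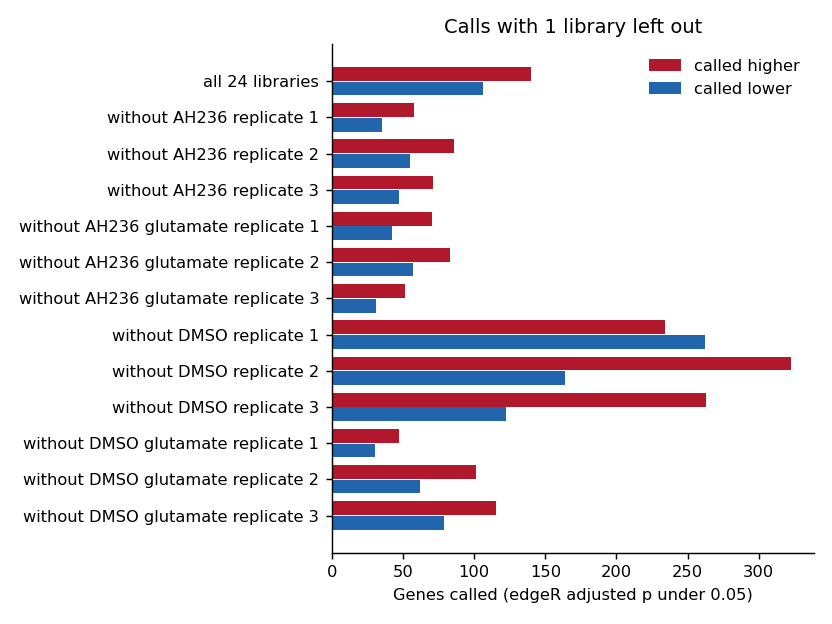
Number of genes called higher (red) and lower (blue) in the interaction with all 24 libraries and with each of the 12 compared libraries left out in turn. The bars are longest without a DMSO library in medium (385 to 496 genes), and blue exceeds red only without DMSO replicate 1.

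With all libraries, most of the called genes answered to glutamate in the same direction under both treatments, with a larger size under AH236. Among the 140 higher genes, 90 were called raised by glutamate both in DMSO and in AH236 cultures, as were 24.3% of all genes tested, and 21 were called raised only in AH236 cultures, with no call in DMSO. A further 10 were lowered by glutamate in DMSO cultures and raised in AH236 cultures, 14 were lowered in DMSO cultures with no call in AH236 cultures, and 5 were lowered in both. The median log2 glutamate effect of these 140 genes was 0.56 in DMSO and 1.01 in AH236 cultures. Among the 106 lower genes, 53 were called lowered in both treatments, as were 26.2% of all genes, and 16 in AH236 cultures with no call in DMSO. The others comprised 18 raised in both, 12 raised in DMSO with no call in AH236 cultures, and 7 raised in DMSO and lowered in AH236 cultures. Their median log2 glutamate effect was -0.13 in DMSO and -0.58 in AH236 cultures. By the fitted values alone, 98 of the 140 and 63 of the 106 had the same sign in both treatments and a larger size with AH236. The larger size follows from the call itself for a higher gene raised in both treatments and for a lower gene lowered in both. The share of all genes tested with the same sign and a larger size was not counted, with or without DMSO replicate 1. The median absolute log2 glutamate effect of all genes tested was itself larger in AH236 cultures, at 0.383 against 0.355 in DMSO cultures. Without DMSO replicate 1 these medians were 0.386 and 0.369.

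This make-up was different without DMSO replicate 1. Of the 234 higher genes 117 were raised in both treatments and 31 lowered in both, against 25.2% and 26.8% of all genes, and 131 had the same sign with a larger size under AH236. Of the 262 lower genes 97 were lowered in both and 71 raised in both, against the same 26.8% and 25.2% of all genes. Among these 262 genes, 119 had the same sign with a larger size under AH236 and 93 with a smaller one. Their median glutamate effect was 0.08 in DMSO and -0.34 in AH236 cultures. The turned directions numbered 13 among the higher and 15 among the lower genes. The classes are read from calls in separate contrasts, so a gene with no call in 1 treatment is not shown to be unresponsive there.

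An interaction can come from a difference between AH236 and DMSO in medium, in glutamate, or in both. AH236 differed from DMSO in 1671 genes in medium (10.5%, with 5.55% higher and 4.95% lower) and in 1633 in glutamate (10.3%, with 6.17% higher and 4.10% lower), so most of its differences were not accompanied by a called interaction. Of the 140 higher genes, 60 were called higher with AH236 in glutamate with no call in medium, 59 were called lower with AH236 in medium with no call in glutamate, and 15 were both. Another 3 were higher in both media, 1 was lower in both and 2 had no call in either. Of the 106 lower genes, 47 were called higher with AH236 in medium with no call in glutamate, 45 were called lower in glutamate with no call in medium, and 5 were both. Here 2 were higher in both media, 1 was lower in both and 6 had no call in either. The median log2 difference of AH236 from DMSO in the higher genes was -0.26 in medium and 0.24 in glutamate, and in the lower genes 0.20 and -0.21. With all libraries the differences in medium and in glutamate were thus of similar size. In the fit without DMSO replicate 1, AH236 differed from DMSO in 8.72% of genes in medium (5.33% higher, 3.39% lower) and in 15.7% in glutamate (9.34% higher, 6.35% lower). In that fit the higher genes leaned to glutamate, with 122 called in glutamate alone and 66 in medium alone. The lower genes had 97 in glutamate alone and 125 in medium alone. The median log2 difference of AH236 from DMSO was then -0.17 in medium and 0.25 in glutamate in the higher genes. In the lower genes it was 0.28 and -0.17.

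Genes were next taken by how they answered to glutamate in IS141 and AH609 cultures, whose libraries stand on neither side of the interaction, although they enter its filter, scaling and dispersions. Glutamate raised 1135 genes at least 2-fold in both and lowered 629. In the raised group 47 genes were higher and 4 lower in the interaction (4.49% called, against 1.55% of all 15908 genes). The median log2 difference of this group was 0.22, against -0.0037 over all genes. Once DMSO replicate 1 was removed the counts were 51 higher and 29 lower (7.05%, against 3.12% of the same 15908 genes), and the median was 0.04. In the lowered group 1 gene was higher and 13 were lower with all libraries (2.23%), and 2 and 31 without DMSO replicate 1 (5.25%). The median of the lowered group was -0.15 in both cases. With any 1 of the 12 libraries left out, the median of the raised group ran from 0.04 to 0.29 and that of the lowered group from -0.17 to -0.12. The larger rise of the raised group under AH236 thus rested on DMSO replicate 1, without which its median was lowest, whereas the deeper fall of the lowered group was as large without that library. Both groups were chosen in cultures given agents. A change of the glutamate effect that the agents share against DMSO can therefore enter the choice, and the medians do not show a trait of AH236 alone.

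The library means show where DMSO replicate 1 lay. Over the 1135 raised genes its mean log2 CPM was 1.57, while DMSO replicates 2 and 3 were at 1.04 and 1.06 and the AH236 libraries in medium at 1.07, 1.24 and 1.10. In glutamate the DMSO libraries were at 3.05, 3.09 and 3.06 and the AH236 libraries at 3.18, 3.18 and 3.21. DMSO replicate 1 therefore lay above every other medium library of the 12 for these genes, toward the glutamate libraries, and the AH236 libraries lay above the DMSO libraries in glutamate without overlap. Over the 629 lowered genes DMSO replicate 1, at 2.73, was close to DMSO replicates 2 and 3, at 2.72 and 2.71. The AH236 libraries in medium were a little lower, at 2.60, 2.61 and 2.62. In glutamate the lowered genes stood at 1.58, 1.47 and 1.49 with DMSO and at 1.25, 1.23 and 1.27 with AH236, and the groups did not overlap in either medium. For the lowered group the median log2 difference of AH236 from DMSO was -0.09 in medium and -0.26 in glutamate, and for the raised group it was -0.06 and 0.15, or 0.09 and 0.15 without DMSO replicate 1.

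**Figure D3:**
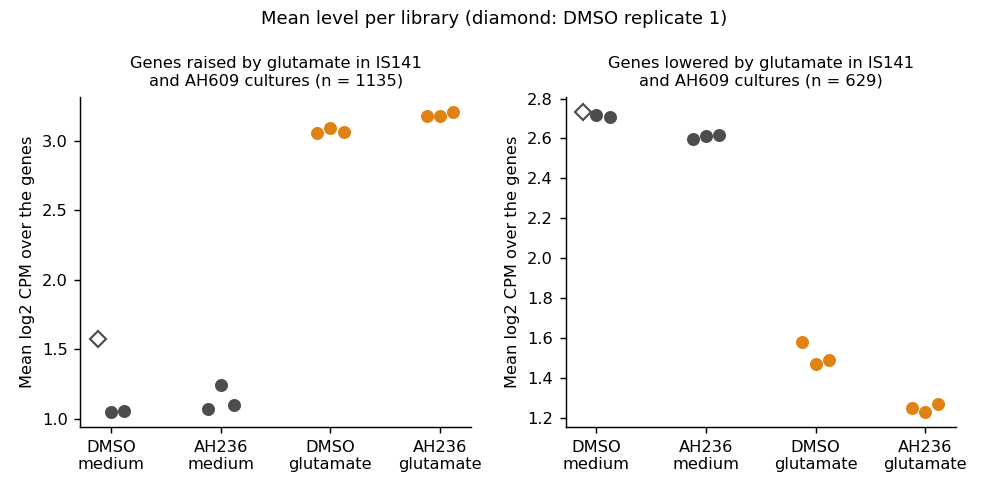
Mean log2 CPM per library over genes raised (left, 1135) or lowered (right, 629) at least 2-fold by glutamate in IS141 and AH609 cultures, with medium libraries in grey, glutamate libraries in orange and DMSO replicate 1 as an open diamond. The diamond lies above the other medium libraries on the left at 1.57 and among the DMSO libraries on the right at 2.73.

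The same was seen when all genes were ordered by their mean glutamate effect in IS141 and AH609 cultures. With all libraries the median interaction went from -0.15 in the 822 genes lowered by 1 to 2 on the log2 scale, through 0.01 in the 4838 genes raised by up to 0.5, to 0.14 in the 1003 genes raised by 1 to 2. It reached 0.30 in the 269 genes raised by 2 to 3 and 0.58 in the 168 genes raised by more than 3. In the fit without DMSO replicate 1 the medians on the lowered side were much the same, at -0.15 for the 822 genes, but they were 0.05, 0.01 and 0.0023 in the 3 strongest raised bins. In the 168 most strongly raised genes the median log2 glutamate effect was 4.28 in AH236 cultures, and in DMSO cultures it was 3.69 with DMSO replicate 1 and 4.30 without it. The median of the mean effect in IS141 and AH609 cultures, by which the bins were formed, was 3.72 there. For the 822 lowered genes it was -1.22, beside -1.25 in AH236 and -1.10 in DMSO cultures with all libraries. Of these 168 genes, 3 were called higher and 0 lower with all libraries, and 2 higher and 4 lower without DMSO replicate 1. Over all genes tested, 1.55% and 3.08% were called in the same 2 fits.

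**Figure D4:**
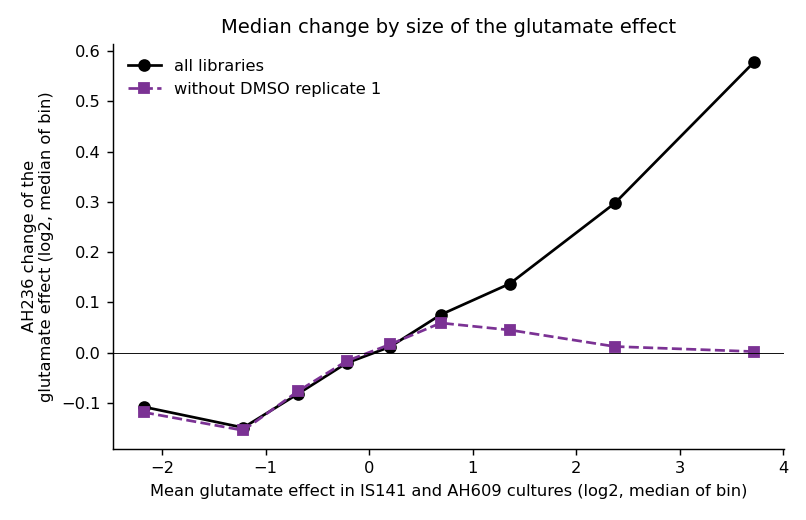
Median interaction (vertical, log2) of genes in 9 bins of their mean glutamate effect in IS141 and AH609 cultures (horizontal, log2), with all libraries (black circles) and without DMSO replicate 1 (purple squares). Both lines run together for lowered genes, and they part for raised genes, where the black line reaches 0.58 and the purple one stays between 0.0023 and 0.06.

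Whether the change was particular to AH236 was asked by setting its glutamate effect against those of the other agents, a contrast in which no DMSO library is a term. Against the mean of IS141 and AH609, 156 genes (0.981%) were called, 123 higher (0.773%) and 33 lower (0.207%) with AH236. Against IS141 alone 300 genes were called (1.89%), 221 higher (1.39%) and 79 lower (0.497%). Against AH609 alone edgeR called 0 genes (0%), with 1060 at an unadjusted p under 0.05, and DESeq2 called 35. Leaving out DMSO replicate 1, which enters these fits only through the filter, scaling and dispersions, the counts rose to 699 (4.34%), 961 (5.96%) and 93 (0.577%). The 699 were 545 higher (3.38%) and 154 lower (0.955%). Fits of only the compared groups gave 762 (566 higher and 196 lower), 991 and 126. A difference between the AH236 and AH609 glutamate effects was thus called for some genes in some fits and for 0 genes in others.

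Single libraries moved these counts too. Against the mean of both agents the higher genes numbered 59, 74 and 75 without AH236 replicate 1, 2 or 3 and 64, 80 and 60 without AH236 glutamate replicate 1, 2 or 3, and the lower genes 10, 12, 13, 8, 10 and 6 in the same order. The lower genes also fell to between 14 and 20 without AH609 replicate 1 or 2, IS141 replicate 1 or 3, any AH609 glutamate library, or IS141 glutamate replicate 2 or 3. Against IS141 the count was 190, 199 and 193 without AH236 replicate 1, 2 or 3, 165 without AH236 glutamate replicate 3, 137 without IS141 replicate 3 and 177 without IS141 glutamate replicate 3. Against AH609 it was 3 without AH609 replicate 3 and 2 without AH609 glutamate replicate 1.

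The genes called against DMSO were looked up in these contrasts, which share the AH236 libraries with the call. Of the 140 higher genes 57 were also called higher against IS141 and 48 against the mean of both agents. Over all genes these shares were 1.39% and 0.773%. Of the 106 lower genes 15 and 11 were also called lower, against 0.497% and 0.207% of all genes. Since the genes were chosen on the same AH236 libraries, these counts add no support to the calls. None of the called genes was called in the opposite direction against IS141 or against the mean. The contrast with AH609 called 0 genes of all those tested, so it could show no call in either direction. The median log2 glutamate effect of the 140 higher genes was 0.56 in DMSO, 0.63 in IS141, 0.79 in AH609 and 1.01 in AH236 cultures. For the 106 lower genes it was -0.13, -0.40, -0.40 and -0.58 in the same order. Since the genes were chosen for the gap between DMSO and AH236, the outer places in this order are fixed by the choice, and the values of IS141 and AH609 lay between them.

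Of the genes called both with and without DMSO replicate 1, 111 higher and 93 lower ones averaged 1 log2 CPM or more across the 12 libraries. The 2 with the largest change in each direction are given with their levels in CPM after TMM scaling, which adjusts for library size and composition. The gene IDs have no name here, so what the genes encode is not stated.

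The largest positive change belonged to ENSRNOG00000018052, which glutamate raised in all treatments. Its level in medium was 2.63, 2.32 and 2.00 CPM in the DMSO libraries and 1.90, 2.01 and 2.55 CPM in the AH236 libraries. In glutamate it was 4.54, 4.40 and 5.10 CPM with DMSO and 8.81, 9.52 and 10.45 CPM with AH236. The groups overlapped in medium and were far apart in glutamate. The log2 glutamate effect was 1.02 ± 0.137 (SE) in DMSO and 2.15 ± 0.130 (SE) in AH236 cultures, and the interaction was 1.13 ± 0.191 (SE; edgeR adjusted p = 0.00328). Without DMSO replicate 1 the interaction was 1.03 (adjusted p = 0.00339), and over all alternatives for this gene the adjusted p ran from 1.51e-04 to 0.0559, the last of these in the fit of the 12 libraries alone. IS141 and AH609 cultures reached 7.30 ± 0.394 and 7.23 ± 0.978 CPM (SD, n = 3) in glutamate. The glutamate effect of AH236 was above that of IS141 by 0.56 (edgeR adjusted p = 0.139) and above that of AH609 by 0.28 (adjusted p = 0.867). A difference was thus called against DMSO and not against the other agents, which does not show that AH236 equalled them. In glutamate the AH236 libraries lay above every IS141 library (6.98 to 7.74 CPM) and every AH609 library (6.22 to 8.17 CPM).

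ENSRNOG00000003694 was low in medium and was raised in all treatments. In medium it stood at 1.05, 1.32 and 1.29 CPM in the DMSO libraries and at 0.931, 0.950 and 0.741 CPM in the AH236 libraries. In glutamate it reached 10.6, 12.2 and 13.1 CPM with DMSO and 20.2, 15.9 and 19.3 CPM with AH236. The AH236 libraries were below all DMSO libraries in medium and above all of them in glutamate. The log2 glutamate effect was 3.29 ± 0.167 (SE) in DMSO and 4.40 ± 0.170 (SE) in AH236 cultures, and the interaction was 1.11 ± 0.269 (SE; edgeR adjusted p = 0.0362). Leaving DMSO replicate 1 out gave 1.21 (adjusted p = 0.0226). This call was not firm. It was lost when any 1 of 9 of the 12 libraries was left out and in the fit of the 12 libraries alone, and the adjusted p ran from 0.00553 to 0.105 over all alternatives. The 9 libraries were the 3 AH236 libraries in medium (0.0757, 0.0631 and 0.105), AH236 glutamate replicates 1 and 3 (0.0723 and 0.0759), DMSO replicates 2 and 3 (0.0560 and 0.0660) and DMSO glutamate replicates 1 and 2 (0.0787 and 0.0524). In IS141 and AH609 cultures the log2 glutamate effect was 3.92 and 3.89, and AH236 differed from neither at the threshold (adjusted p = 0.480 and 0.801).

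ENSRNOG00000029264 had the largest negative change. In medium it stood at 26.1, 54.8 and 58.6 CPM in DMSO replicates 1, 2 and 3, and the 3 AH236 libraries all lay at 40.7 to 40.9 CPM. In glutamate it was at 19.1, 25.3 and 19.0 CPM with DMSO and fell to 6.08, 4.58 and 5.63 CPM with AH236. DMSO replicate 1 was far below the other DMSO libraries in medium and near the DMSO glutamate libraries. In medium AH236 minus DMSO was -0.19 on the log2 scale (edgeR adjusted p = 0.630). Without DMSO replicate 1 it was -0.47 (edgeR adjusted p = 0.00554). The log2 glutamate effect was -1.14 ± 0.213 (SE) in DMSO and -2.90 ± 0.252 (SE) in AH236 cultures. The interaction was -1.76 ± 0.332 (SE; edgeR adjusted p = 0.0150), and without DMSO replicate 1 it was -1.47 ± 0.174 (SE; adjusted p = 3.79e-05), with adjusted p-values from 2.32e-05 to 0.152 over all alternatives, the highest in the fit of the 12 libraries alone. The fall was as deep with IS141, at -2.90 ± 0.244 (SE), and reached -2.53 ± 0.241 (SE) with AH609. AH236 minus IS141 was -0.0014 ± 0.326 (SE; adjusted p = 0.999), and AH236 minus AH609 was -0.37 ± 0.355 (SE; adjusted p = 0.921).

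ENSRNOG00000010254 turned its direction. In medium it stood at 1.92, 3.25 and 2.73 CPM in the DMSO libraries and at 6.92, 5.67 and 6.67 CPM in the AH236 libraries. In glutamate the levels were 3.81, 3.77 and 3.44 CPM with DMSO and 4.05, 3.02 and 3.59 CPM with AH236. The treatments were far apart in medium and overlapped in glutamate, so the interaction of this gene lay in medium. AH236 was above DMSO there by 1.28 ± 0.156 on the log2 scale (SE; edgeR adjusted p = 8.39e-06), and in glutamate the difference was -0.04 ± 0.162 (SE; adjusted p = 0.921). Glutamate lowered the gene by -0.84 ± 0.153 (SE) in AH236 cultures. In DMSO cultures it raised it by 0.48 ± 0.165 (SE; adjusted p = 0.0149), but without DMSO replicate 1 the value was 0.30 and missed the threshold (adjusted p = 0.116). The interaction was -1.32 ± 0.225 (SE; adjusted p = 0.00335). Leaving DMSO replicate 1 out gave -1.14 (adjusted p = 0.00149), with a range of adjusted p from 3.44e-05 to 0.0559 over all alternatives, the highest in the fit of the 12 libraries alone. IS141 and AH609 cultures were also above DMSO in medium by level, at 4.78 ± 0.388 and 5.76 ± 0.324 CPM (SD, n = 3), and the AH236 glutamate effect differed from theirs by -0.21 (adjusted p = 0.758) and -0.37 (adjusted p = 0.826).

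**Figure D5:**
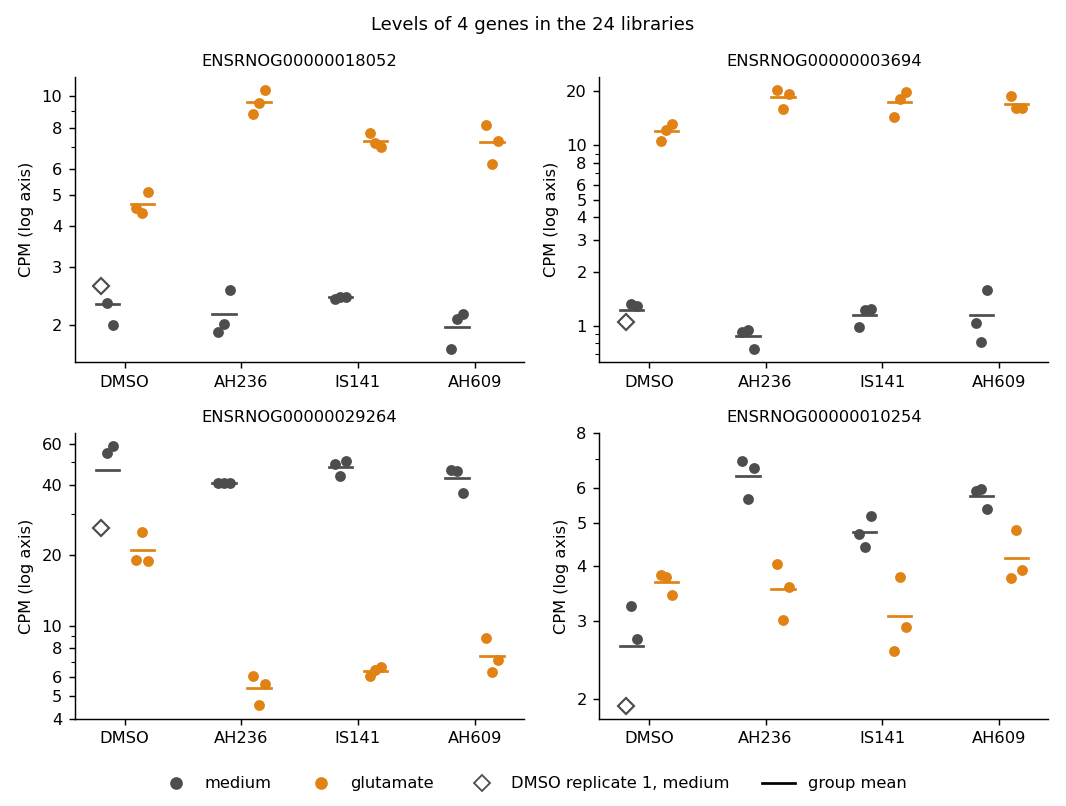
Level of the 4 named genes in each of the 24 libraries (vertical, CPM on a log axis) by treatment, with medium in grey, glutamate in orange, short lines for group means and an open diamond for DMSO replicate 1 in medium. AH236 and DMSO part in glutamate for the first 3 genes, and in medium for ENSRNOG00000003694 and ENSRNOG00000010254. In medium ENSRNOG00000010254 lies at 5.67 to 6.92 CPM with AH236 and at 1.92 to 3.25 CPM with DMSO.

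IS141 and AH609 were set against the same DMSO libraries in the same way, which is therefore no independent support. Their change of the glutamate effect was called in 124 genes (0.779%) and 4 genes (0.0251%) with all libraries, and in 742 (4.60%) and 214 (1.33%) without DMSO replicate 1. With all libraries AH236 had the most calls of the 3 agents, and without DMSO replicate 1 IS141 did. The values for the 4 genes are given first with all libraries. For ENSRNOG00000018052 the change was 0.57 with IS141 and 0.86 with AH609, and for ENSRNOG00000003694 it was 0.63 and 0.60. For ENSRNOG00000029264 it was -1.76 and -1.39, and for ENSRNOG00000010254 it was -1.11 and -0.96. The signs were those of AH236 in all 8 cases, and the values of IS141 for ENSRNOG00000029264 (edgeR adjusted p = 0.0126) and ENSRNOG00000010254 (adjusted p = 0.0149) passed the threshold, while the other 6 did not (adjusted p from 0.157 to 0.645). Without DMSO replicate 1 the same 2 values passed (-1.47 and -0.94, adjusted p = 6.08e-06 and 0.00678). The AH609 value for ENSRNOG00000029264 then passed as well (-1.10, adjusted p = 8.10e-04), and the other 5 did not (adjusted p from 0.0579 to 0.382).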

How the data were processed

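The values the authors deposited are raw counts, 1 whole number per Ensembl rat gene and library, not normalized. The submitters' processing notes name STAR 2.7.8a and RSEM 1.3.3, besides bcl2fastq, FastQC 0.11.8 and cutadapt 2.3, and the build Rnor_6.0. What each did, the annotation and whether counting used strand were not given there. Since RSEM gives estimates, the numbers may have been rounded, and overlapping or near-identical genes are uncertain.

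Groups and replicate numbers came from the titles. Both later AH236 glutamate libraries carry the number 2, and the one with the later accession is called replicate 3. No replicate pair agreed within counting noise (lowest chi-square per degree of freedom 4.83). The test was the robust quasi-likelihood F test of edgeR 4.0.16 (R 4.3.3), with TMM factors, filterByExpr and 1 mean per group in a fit of all 24 libraries. The Benjamini-Hochberg adjustment ran over every gene tested in a comparison. The common biological coefficient of variation was 7.49%, and 5.82% without DMSO replicate 1. Standard errors are those that give the test's p. Library means used log2 CPM with a prior count of 2. DESeq2 1.42.0, other scalings, no filter, a title-number block and leaving out libraries were the alternatives.

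The members, gene groups and rules were chosen with earlier results of these data known. The rule for named genes took, among genes called with and without DMSO replicate 1 and averaging 1 log2 CPM or more, the 2 highest and 2 lowest. Lists of gene symbols and promoter motifs could not be applied, since 0 IDs matched a symbol. The effect bins and the comparisons with IS141 and AH609 singly were added after the data had been seen.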

Additional observations from a re-analysis of the deposited data

Results flagged for a closer look

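Effects of glutamate that differed between 2 treatments by the test of the difference itself were found for 246 genes between AH236 and DMSO and for 300 genes between AH236 and IS141. Among the 4 named genes the log2 difference between the glutamate effects of AH236 and DMSO was 1.13 for ENSRNOG00000018052, 1.11 for ENSRNOG00000003694, -1.76 for ENSRNOG00000029264 and -1.32 for ENSRNOG00000010254. Without DMSO replicate 1 the differences were 1.03, 1.21, -1.47 and -1.14 in the same order. Single libraries within a group of 3 were not tested as outlying.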

How the results depend on the processing

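DESeq2 gave 263 higher and 180 lower genes in the interaction, and the fit of the 12 compared libraries alone gave 12 and 6, with 1 rise and 2 falls of at least 2-fold. RLE size factors (129 and 86), library totals alone (105 and 105), no filter (99 and 106) and the replicate block (132 and 96) stayed within 1.5 times. With 1 of the 12 libraries left out, the higher genes ran from 47 to 323 and the lower from 30 to 262, and those of at least 2-fold from 4 to 88 and from 7 to 29. Without DMSO replicate 1, 457 lower genes were called with no filter, library totals alone gave 170 higher and 298 lower, and leaving out 1 more library gave 71 to 282 higher and 74 to 305 lower. Against the mean of the other agents, DESeq2 called 240 higher and 60 lower and the compared groups alone 566 and 196, and with 1 library left out the counts ran from 59 to 545 and from 6 to 154. Against IS141, DESeq2 called 472 and the compared groups alone 991 (137 to 961 with 1 library left out). Against AH609 it was 35, 126, 10 with no filter, and 0 to 93. The cause of these shifts was not tested.

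The title numbers were not taken as pairs. Deviations from the group means of same-numbered libraries correlated between -0.12 and 0.17, and 2 of 12 pairs exceeded 0.1, against 1 of 24 pairs with other numbers. Not every library correlated best with its own number. All 4 named genes kept their sign under all 18 alternatives, and all lost the call in the fit of the 12 libraries alone. Calls were fewer at low levels, with 0.251% of the least abundant of the 4 equal parts called against 2.67% of the most abundant, and whether depth set this was not tested.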
